A study of Mus musculus with 7 samples.

Results

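The genes described here encode 5 families of detoxification enzymes of the mouse olfactory epithelium: cytochromes P450 of the Cyp1 to Cyp4 families, UDP-glucuronosyltransferases (Ugt), glutathione S-transferases (Gst), cytosolic sulfotransferases (Sult) and aldehyde dehydrogenases (Aldh). The rule that picks them uses the gene symbol, and they were 157 of the 54532 genes in the deposited tables: 75 Cyp, 19 Ugt, 22 Gst, 21 Sult and 20 Aldh genes. RNA sequencing of poly(A) RNA was done on 7 pools of cells sorted by fluorescence. Mature olfactory sensory neurons came from mice of the OMP-GFP line on postnatal days 2, 7 and 16 (3 libraries), and intermediate progenitor cells from mice of the Neurog1-GFP line on postnatal days 3, 7, 9 and 16 (4 libraries). The lines are named for the genes Omp and Neurog1, each library is a pool of purified cells, and the labels name no treatment. Each age had 1 library per population, so ages stood as the replicates of a population, and whether different animals went into each library is not stated in the labels. Population and mouse line coincide and cannot be told apart.

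The nose is exposed to inhaled chemicals, and its lining carries many of the enzymes known from the liver. Phase I enzymes such as cytochromes P450 and aldehyde dehydrogenases oxidise a compound, and phase II enzymes attach glutathione, glucuronic acid or sulfate to it, which makes it easier to excrete and can end its action as an odorant. In the olfactory epithelium the most abundant of these enzymes are known mainly from sustentacular cells, the supporting cells between the neurons, and from Bowman glands, which secrete the mucus, rather than from neurons.

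Libraries held between 24203965 and 25930727 counts on genes. Levels are given in TPM, which scale reads for transcript length and to the same total in every library, and differences between populations as log2 folds of mature neurons over progenitors from edgeR on the counts, where a gene is called when its adjusted p, over all 17975 tested genes, is under 0.05. The labels were checked with marker lists. In mature neurons all 8 markers of progenitors were called lower, while 9 of the 10 neuronal maturity markers were called higher and 0 lower. The progenitor markers summed to 52.0 to 86.5 TPM in mature neurons and 1234.5 to 1794 TPM in progenitors. The maturity markers summed to 11312 to 13706 TPM in mature neurons and still to 4423 to 6607 TPM in progenitors. The source of that signal in the progenitor pools, and its part in the population folds, was not tested. Neurog1 stood between 0.840 and 1.85 TPM in the mature neuron libraries and between 292 and 698 TPM in the progenitor libraries. Omp, the gene the mature neuron line is named for, did not separate the populations: it stood at 1066, 1413 and 1631 TPM in mature neurons (P2, P7, P16) and at 1981, 1323, 2371 and 2306 TPM in progenitors (P3, P7, P9, P16). In these sorted neuronal pools the markers of sustentacular cells were also present, with all 13 detected, and their summed level ran from 1526 to 2805 TPM in mature neurons and from 1247 to 2389 TPM in progenitors.

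Several of the enzymes share sequence with a neighbour. In the deposited counts, reads with several matches (11.9% to 13.9% of each library) and ambiguous reads (0.988% to 1.14%) stand apart from the genes. How the TPM values treat such reads is not given in the sources used here. Ugt2a1 and Ugt2a2, which conjugate glucuronic acid to odorants and are known from the olfactory epithelium, start from separate first exons and share the rest of the transcript. Ugt2a1 (chr5:87459490-87490871, minus strand, GRCm38) had 98.8% of its exon bases inside exons of another gene on the same strand (Ugt2a2 and Gm43638). Both coding sequences have 1587 bases, and the last 872 are identical. The sequences below run over coding bases 686 to 745. Capitals mark the first 30 bases of the shared part, and the lower-case bases before it match at some positions only.
Ugt2a1: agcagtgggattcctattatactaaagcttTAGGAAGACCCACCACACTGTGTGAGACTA
Ugt2a2: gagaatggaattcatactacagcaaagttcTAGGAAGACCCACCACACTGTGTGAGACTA
Cyp2a5, the coumarin hydroxylase of nose, lung and liver, is the member with the highest mean level and has a close copy, Cyp2a4, in the same cluster. Their coding sequences of 1485 bases differ at 23 positions (98.5% identity). Coding bases 598 to 657 hold 4 of the differences, in capitals.
Cyp2a5: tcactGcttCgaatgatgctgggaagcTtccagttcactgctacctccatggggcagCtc
Cyp2a4: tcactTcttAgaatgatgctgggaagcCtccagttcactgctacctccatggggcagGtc
Gstp1, the pi-class glutathione S-transferase, and Gstp2 differ at 12 of 633 coding bases (98.1% identity), of which 6 lie in the first 60 bases, in capitals.
Gstp1: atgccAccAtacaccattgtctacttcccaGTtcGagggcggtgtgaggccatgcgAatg
Gstp2: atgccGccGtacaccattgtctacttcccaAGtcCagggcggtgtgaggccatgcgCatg

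For some of these genes the deposited counts and TPM values were far apart. Ugt2a1 had a mean of 647 TPM but at most 2 counts in any library, so a TPM rebuilt from its counts and exon length came to 0.00824% of the deposited TPM. The same measure was 5.88% for Ugt2a2, 16.7% for Gstp1 and 92.5% for Cyp2a5, against a median of 136% over the 16860 genes with a mean of at least 1 TPM, of which 835 were under 10%. Of the 50-base words of Cyp2a5, 37.0% also occur in Cyp2a4 or a pseudogene. Gstm2 stood at 54.9% and Gsta3 at 57.7%, and the other 51 of the 56 enzymes with a mean of at least 1 TPM were at 60% or more. The part of shared sequence in these gaps was not tested. For Ugt2a1 the populations could be compared on the TPM values only, and the count folds of Ugt2a2 and Gstp1 are uncertain.

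**Figure D1:**
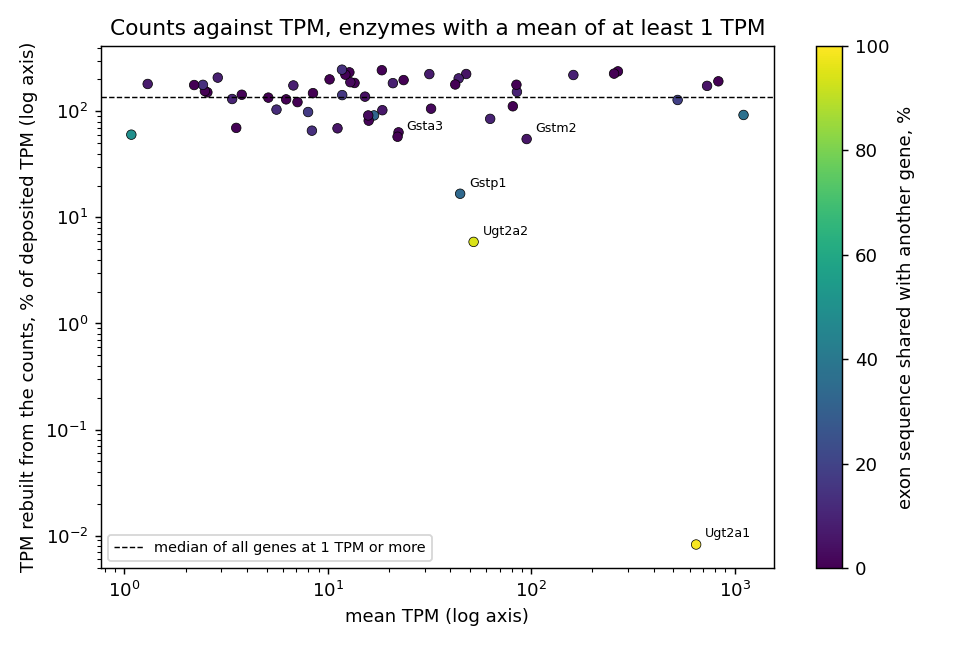
Enzymes with a mean of at least 1 TPM, with the mean TPM on the x axis and the TPM rebuilt from the counts, as a percentage of the deposited TPM, on the y axis (both log axes); colour gives the percentage of exon sequence shared with another gene, and the dashed line is the median over all genes with a mean of at least 1 TPM. Ugt2a1 lies at 0.00824%, Ugt2a2 at 5.88% and Gstp1 at 16.7%, while the other members lie at 54.9% or above.

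A few enzymes carried most of the signal. Of the 157 genes, 42 had 0 counts in every library, 56 had a mean of at least 1 TPM, 38 of at least 10 TPM and 8 of at least 100 TPM, and the 6 highest held 73.2% of the summed mean TPM. In order of mean TPM these were Cyp2a5 (1106 TPM), the sulfotransferase Sult1d1 (831 TPM), Cyp2g1, a cytochrome P450 known from the olfactory mucosa (732 TPM), Ugt2a1 (647 TPM), the mu-class glutathione S-transferase Gstm1 (524 TPM) and Sult1c1 (267 TPM). The ranges of each neighbouring pair in this order overlapped over the 7 libraries. All 6 are on the list of supporting-cell and gland enzymes that is set beside cell type markers further on. That list was chosen with earlier results of these data known, so their place on it is not independent of their levels.

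**Figure D2:**
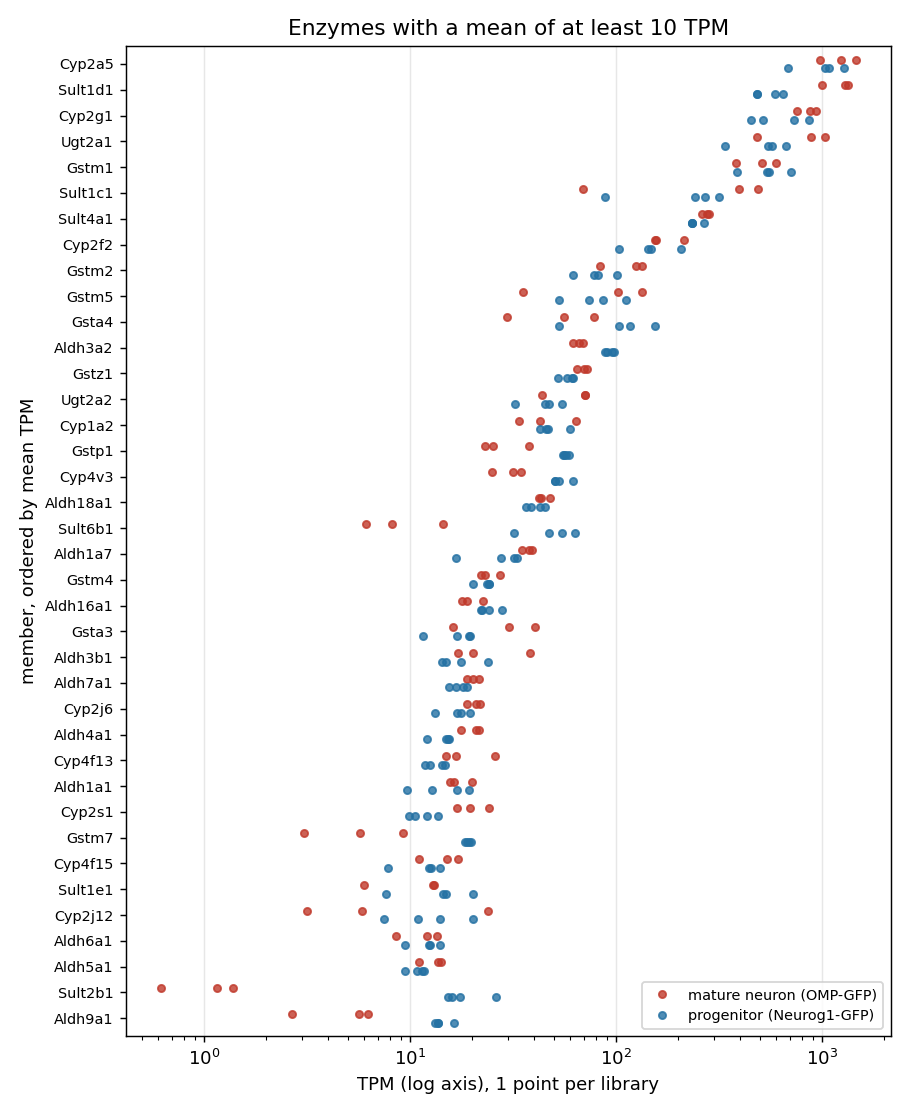
TPM of the 38 enzymes with a mean of at least 10 TPM (x axis, log), 1 point per library, mature neuron libraries in red and progenitor libraries in blue; enzymes are ordered on the y axis by mean TPM. Sult1d1 separates the populations upward in mature neurons, Sult2b1, Sult6b1, Aldh9a1, Gstm7 and Gstp1 separate them downward, and Cyp2a5, Gstm1 and Sult1c1 overlap.

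Summed over all members, the enzymes stood at 7081, 6679 and 5383 TPM in the mature neuron libraries (P2, P7, P16), and at 4924, 5139.5, 6055 and 3985 TPM in progenitors at P3, P7, P9 and P16. The P16 library was the lowest of its population in both, and in TPM the populations overlapped. On CPM, the scale of the tests, they did not, with 4952 to 5414 CPM in mature neurons and 3231 to 4246 CPM in progenitors. Sult1d1 alone held 1271 to 1709 CPM of these sums in mature neurons and 558 to 750 CPM in progenitors. Ugt2a1, with nearly no counts, is almost absent from the CPM sums. In TPM 1 family, the sulfotransferases, separated them as a sum, with 1804, 1998 and 1691 TPM in mature neurons and 1132, 1028, 1186 and 1092 TPM in progenitors. The Cyp sums ran from 2179.9 to 2713 TPM in mature neurons and from 1489.9 to 2572 TPM in progenitors, the Ugt sums from 529.7 to 1106 and from 371 to 721 TPM, and the Gst sums from 702 to 1174 and from 755 to 1263 TPM. On CPM the sums of Sult, of Cyp (1897.5 to 2142 against 1168.5 to 1891 CPM) and of Ugt (2.91 to 3.53 against 1.47 to 2.72 CPM, nearly without Ugt2a1) did not overlap, and those of Gst and Aldh did. In TPM the Aldh sums were the most even, from 280.1 to 296 TPM in mature neurons and from 277 to 316 TPM in progenitors. Within a family 1 gene often dominated: Ugt2a1 held 92.3% of the mean Ugt level, Sult1d1 58.6% of Sult, Gstm1 52.9% of Gst and Cyp2a5 50.3% of Cyp, while Aldh3a2 held 27.4% of Aldh.

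**Figure D3:**
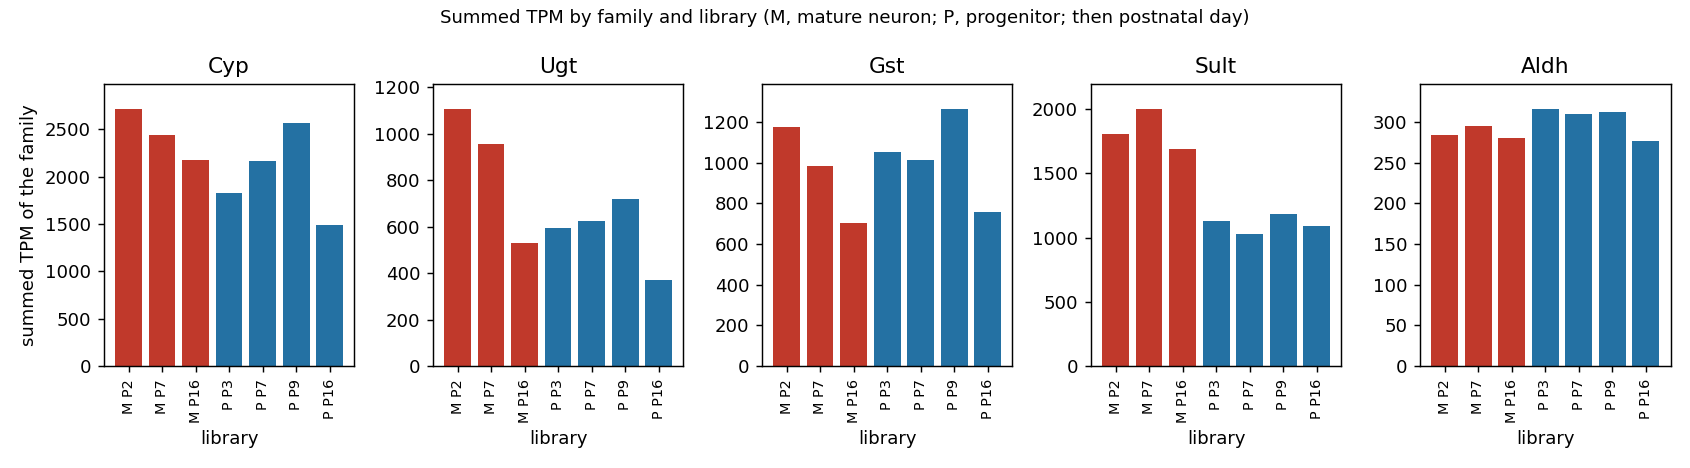
Summed TPM of each enzyme family (y axis, starting at 0) in each library (x axis; M, mature neuron in red, and P, progenitor in blue, followed by the postnatal day). The 3 mature neuron bars of the sulfotransferases, from 1691 to 1998 TPM, all stand above the 4 progenitor bars, from 1028 to 1186 TPM; the bars of the other families overlap.

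The comparison of the populations asked which of these enzymes differ between mature neurons and progenitors. Of the 157 genes, 69 had enough counts to be tested (27 Cyp, 1 Ugt, 16 Gst, 8 Sult and 17 Aldh). By edgeR 19 were called higher in mature neurons and 13 lower, which is 27.5% and 18.8% of those tested, beside 28.8% and 30% of all genes tested. In either direction 46.4% were called, beside 58.8% of all genes. Of the called members 4 were at least 2-fold higher and 11 at least 2-fold lower. The share of all genes past this cut was not computed, so this split is not set against the whole table. The median log2 fold was 0.28 over the tested members and 0.01 over all genes. The CPM ranges of the populations did not overlap for 33 members (47.8%; 61.4% of all genes).

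These counts moved with the scale and with the libraries used. By limma on log2(TPM + 1) 8 members were called higher and 16 lower of 86, which is 27.9% called beside 44.1% of all genes, and 33.3% of the calls were higher in place of 59.4% by edgeR. Over all genes the share of calls that were higher moved the same way, from 49.0% by edgeR to 38.0% by limma. On that scale the median log2 fold of all genes moved from 0.01 to -0.09, and that of the members from 0.28 to 0.08. Without the P2 mature neuron library edgeR called 12 members higher and 15 lower, without the P7 progenitor library 13 and 12, and without the P16 mature neuron library 22 and 17. The shares of all genes called in these leave-out fits were not computed, so whether the shifts belong to the members or to the whole table was not tested. In these bulk samples, fewer cells of a type and less RNA per cell cannot be told apart.

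**Figure D4:**
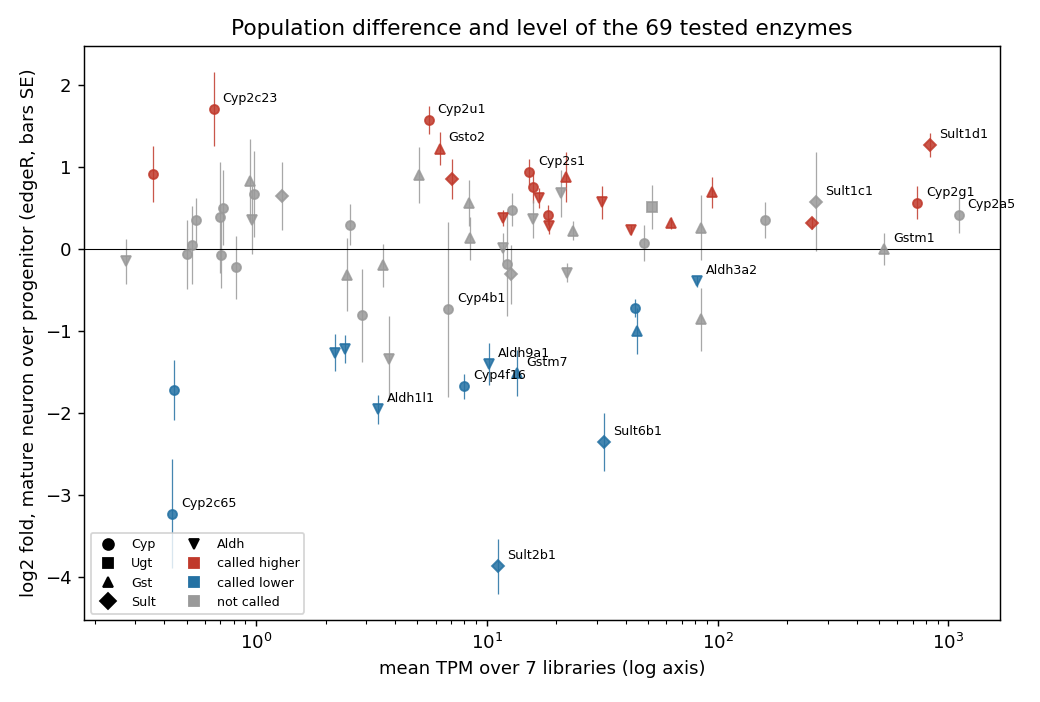
Log2 fold of mature neurons over progenitors (y axis, edgeR, bars are the standard error) against mean TPM (x axis, log) for the 69 tested enzymes; shapes give the family and colours the call. Sult1d1 is called higher at 831 TPM and a log2 fold of 1.27, Sult2b1 lies lowest at -3.88, and the most abundant Cyp and Gst genes, Cyp2a5 and Gstm1, are not called.

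Among the cytochromes P450, which add oxygen to odorants, drugs and fatty acids, 7 of 27 tested were called higher in mature neurons and 4 lower (25.9% and 14.8%, beside 28.8% and 30% of all genes). Cyp2a5 stood at 1457, 1238 and 980.4 TPM in mature neurons (P2, P7, P16) and at 1028, 1078, 1276 and 683 TPM in progenitors (P3, P7, P9, P16). These ranges overlapped, and its log2 fold of 0.41 (SE 0.22) was not called (edgeR adjusted p = 0.130). With the P7 and P16 libraries alone and age as a block it was called higher (log2 fold 0.53, edgeR adjusted p = 0.00761). Cyp2g1 stood at 933, 872 and 752 TPM in mature neurons and at 519, 731, 861 and 454 TPM in progenitors. Its TPM ranges overlapped at the P9 progenitor library, its CPM ranges did not, and it was called higher, with a log2 fold of 0.56 (SE 0.20, adjusted p = 0.0414 by edgeR). The call was lost without any 1 of 5 libraries (P2 or P7 mature neuron, P3, P7 or P16 progenitor; edgeR adjusted p from 0.0534 to 0.111) and on log2(TPM + 1) (limma adjusted p = 0.127).

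Cyp2f2, known for activating naphthalene in the airway, and Cyp1a2, which oxidises caffeine and aromatic amines, were not called. Cyp2f2 stood at 157, 154 and 215 TPM in mature neurons and at 104, 148, 207 and 143 TPM in progenitors, with overlapping ranges (log2 fold 0.35, SE 0.22, edgeR adjusted p = 0.208). It was called higher without the P9 progenitor library (edgeR log2 fold 0.53, adjusted p = 0.0480) and with age as a block (0.46, adjusted p = 0.0301). Cyp1a2 stood at 33.7, 42.5 and 64.1 TPM in mature neurons and at 42.6, 46.7, 60.03 and 45.5 TPM in progenitors. The mature neuron library of P16 was the highest and that of P2 the lowest of all 7 (log2 fold 0.07, SE 0.21, edgeR adjusted p = 0.796).

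The cytochromes P450 that separated the populations most were less abundant. Cyp2u1 (chr3:131288441-131303227, minus strand, GRCm38), a fatty acid hydroxylase, stood at 9.06, 8.42 and 8.65 TPM in mature neurons and at 3.22, 3.07, 3.89 and 2.84 TPM in progenitors. Every mature neuron library was above every progenitor library, by a log2 fold of 1.57 (SE 0.17, adjusted p = 0.000107 by edgeR). Cyp2s1, a cytochrome P450 of epithelia outside the liver, stood at 16.9, 19.5 and 24.1 TPM in mature neurons and at 9.85, 10.6, 13.6 and 12.0 TPM in progenitors, again without overlap (log2 fold 0.93, SE 0.16, edgeR adjusted p = 0.00124). Cyp4f13, of the fatty acid hydroxylases, was called higher with a log2 fold of 0.75 (SE 0.19) but not on log2(TPM + 1) (limma adjusted p = 0.0701).

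Other members of the fatty acid branch were lower in mature neurons. Cyp4f16 stood at 3.63, 3.86 and 3.84 TPM in mature neurons and at 10.2, 11.2, 11.0 and 12.3 TPM in progenitors. Its ranges were far apart and narrow, with a log2 fold of -1.68 (SE 0.15, adjusted p = 5.59e-05 by edgeR). Cyp4v3, an omega-hydroxylase of fatty acids, stood at 34.7, 31.8 and 25.0 TPM against 50.8, 61.8, 53.1 and 50.7 TPM (log2 fold -0.72, SE 0.11). Cyp1b1, which oxidises polycyclic hydrocarbons and oestrogens, was under 0.8 TPM in every library, with a log2 fold of -1.72 (SE 0.37). The remaining called P450 genes lay outside the rule for named genes and are listed to complete the count. They were Cyp2c23 (log2 fold 1.71), Cyp3a13 (0.91) and Cyp2j6 (0.41) among the higher and Cyp2c65 (-3.24) among the lower, and Cyp2c23, Cyp3a13 and Cyp2c65 had a mean under 1 TPM. Without single libraries Cyp3a13 lost its call in 6 of 7 cases (edgeR adjusted p from 0.0564 to 0.182) and Cyp2j6 in 3 (without the P2 or P7 mature neuron or the P7 progenitor library, 0.0506 to 0.0644). On log2(TPM + 1) Cyp3a13 and Cyp2j6 were not called (limma adjusted p = 0.135 and 0.124).

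Nearly all of the glucuronosyltransferase signal came from the locus of Ugt2a1 and Ugt2a2. Ugt2a1 stood at 1033, 883 and 485 TPM in mature neurons and at 548, 574, 665 and 337 TPM in progenitors. The ranges overlapped, P16 was lowest in both populations, and by limma on log2(TPM + 1) the log2 fold of 0.56 was not called (adjusted p = 0.166). Ugt2a2 stood at 70.7, 71.0 and 43.5 TPM against 45.3, 47.4, 54.4 and 32.2 TPM, and on the counts deposited for it the log2 fold was 0.51 (SE 0.27, edgeR adjusted p = 0.134). The other 17 Ugt genes had means under 1 TPM, among them Ugt1a6a at 0.496 TPM and Ugt2b36 at 0.333 TPM, and 8 of the 19 had 0 counts everywhere. The 9 Ugt1a genes on chromosome 1, which are spliced from separate first exons to shared ones, summed to a mean of 1.22 TPM.

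Of the glutathione S-transferases, which join glutathione to reactive compounds, 4 of 16 tested were called higher and 2 lower (25.0% and 12.5%). Gstm1 (chr3:108012255-108017973, minus strand, GRCm38) stood at 595, 511 and 381 TPM in mature neurons and at 551, 538, 709.5 and 385 TPM in progenitors. The ranges overlapped, with the P9 progenitor library above every mature neuron library. The log2 fold was -0.00 (SE 0.20, edgeR adjusted p = 0.995), and it lay between -0.14 and 0.14 in the alternatives run. Its neighbour Gstm2 stood at 133, 125 and 83.8 TPM against 82.2, 78.2, 100.5 and 61.7 TPM, and was called higher with a log2 fold of 0.69 (SE 0.19, adjusted p = 0.0133 by edgeR), although its ranges overlapped. The call on Gstm2 was lost without the P2 mature neuron library (edgeR adjusted p = 0.0508) and on log2(TPM + 1) (limma adjusted p = 0.0786). Gstm7, of the same cluster and class, went the other way, with 9.29, 5.75 and 3.05 TPM in mature neurons and 18.9, 19.8, 19.3 and 18.6 TPM in progenitors. Its progenitor values were nearly constant and all above the mature neuron values (log2 fold -1.52, SE 0.28, edgeR adjusted p = 0.00191).

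Gstp1 stood at 37.7, 23.0 and 25.3 TPM in mature neurons and at 57.3, 55.0, 55.9 and 58.9 TPM in progenitors. The groups did not overlap on either scale. On the counts the log2 fold was -1.01 (SE 0.28, edgeR adjusted p = 0.0144) and on log2(TPM + 1) it was -0.99 (limma adjusted p = 0.00110), and without the P7 mature neuron library the edgeR call was lost (adjusted p = 0.0523). Gsta4, which conjugates the lipid peroxidation product hydroxynonenal, stood at 78.2, 56.0 and 29.7 TPM against 103, 117, 155 and 53.1 TPM. Its ranges overlapped through the P16 progenitor library, and its log2 fold of -0.86 (SE 0.38) was not called (edgeR adjusted p = 0.0825), but was called without that library (log2 fold -1.09, adjusted p = 0.0197) or without the P2 mature neuron library (-1.20, 0.0416), and with age as a block (-0.81, 0.00163).

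Gsto2, an omega-class enzyme that reduces dehydroascorbate, stood at 11.4, 8.48 and 7.39 TPM in mature neurons and at 3.43, 4.14, 5.07 and 3.80 TPM in progenitors. It was the member of this family with the largest called fold upward (log2 fold 1.22, SE 0.20, edgeR adjusted p = 0.000922), without overlap. Gstz1, an isomerase of tyrosine breakdown, differed by a small but even margin, from 64.3 to 72.2 TPM against 52.2 to 62.1 TPM (log2 fold 0.32, SE 0.07, edgeR adjusted p = 0.00608), and the call was lost with age as a block (0.24, adjusted p = 0.0542). Gsta3 was called higher with a log2 fold of 0.88 (SE 0.31, adjusted p = 0.0358 by edgeR), and lost the call without any 1 of 5 libraries (P2 or P7 mature neuron, P3, P7 or P16 progenitor; adjusted p from 0.0504 to 0.153) and on log2(TPM + 1) (limma adjusted p = 0.0995). The 16 tested Gst genes include Gstm5, which is described with age.

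Of the sulfotransferases, which transfer sulfate to phenols, catecholamines and steroids, 3 of 8 tested were called higher and 2 lower (37.5% and 25.0%), and they include the member with the largest called fold. Sult1d1 (chr5:87554645-87569027, minus strand, GRCm38), which sulfates catecholamines and small phenols, stood at 1001, 1289.8 and 1333 TPM in mature neurons and at 481, 482, 588 and 645 TPM in progenitors. Every mature neuron library was above every progenitor library, 2.41-fold on the fitted scale (log2 fold 1.27, SE 0.15, edgeR adjusted p = 0.000159). It was the only 1 of the 8 enzymes above a mean of 100 TPM with a called difference of at least 2-fold. Sult4a1, a sulfotransferase known from neurons, stood at 283, 278 and 261 TPM against 235, 233, 233 and 266 TPM. Its TPM ranges overlapped at the P16 libraries, and it was called higher by edgeR (log2 fold 0.32, SE 0.08, adjusted p = 0.00768) and not by limma on log2(TPM + 1) (adjusted p = 0.0655). Sult1b1, which sulfates thyroid hormones, had a log2 fold of 0.85 (SE 0.25, adjusted p = 0.0176 by edgeR). Its call was lost without the P2 or P7 mature neuron library (edgeR adjusted p = 0.0695 and 0.0587) and on log2(TPM + 1) (limma adjusted p = 0.0545).

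Sult2b1 (chr7:45729983-45784669, minus strand, GRCm38), which sulfates cholesterol and pregnenolone, stood at 1.39, 1.16 and 0.620 TPM in mature neurons and at 26.3, 15.3, 17.5 and 15.9 TPM in progenitors. It was 14.7-fold higher in progenitors, the largest called fold of any member (log2 fold -3.88, SE 0.34, edgeR adjusted p = 4.31e-05), and all progenitor libraries were above all mature neuron libraries. Sult6b1 stood at 6.10, 8.14 and 14.4 TPM against 47.0, 32.1, 54.6 and 62.9 TPM, also without overlap (log2 fold -2.36, SE 0.36, edgeR adjusted p = 0.000676). Sult1c1 stood at 487, 396 and 69.1 TPM in mature neurons and at 315, 242, 269.5 and 88.8 TPM in progenitors. The P16 library was the lowest in both populations, and the log2 fold of 0.57 (SE 0.60) was not called (edgeR adjusted p = 0.435), but was called without the P16 mature neuron library (1.05, adjusted p = 0.0459).

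The aldehyde dehydrogenases, which oxidise aldehydes to acids, had 5 of 17 tested called higher and 5 lower, which is 29.4% each way and near the 28.8% and 30% of all genes. Aldh3a2, the fatty aldehyde dehydrogenase, stood at 65.9, 68.8 and 62.1 TPM in mature neurons and at 90.6, 95.7, 88.0 and 97.2 TPM in progenitors. The ranges did not overlap, and the difference was small and even (log2 fold -0.40, SE 0.07, edgeR adjusted p = 0.00116). Aldh1l1 and Aldh1l2, the cytosolic and mitochondrial formyltetrahydrofolate dehydrogenases of folate metabolism, were both lower in mature neurons. Aldh1l1 stood at 2.17, 1.09 and 0.950 TPM against 4.87, 5.09, 5.29 and 4.25 TPM (log2 fold -1.96, SE 0.17, edgeR adjusted p = 4.71e-05). Aldh1l2 stood at 1.62, 1.33 and 1.06 TPM against 2.22, 4.38, 3.34 and 3.08 TPM (log2 fold -1.22, SE 0.17, edgeR adjusted p = 0.000454). Neither pair of ranges overlapped.

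The called higher members were Aldh4a1, Aldh18a1, Aldh5a1, Aldh1a7 and Aldh7a1. Aldh4a1, which completes the breakdown of proline, stood at 20.9, 21.7 and 17.7 TPM in mature neurons and at 15.4, 14.9, 15.5 and 12.1 TPM in progenitors (log2 fold 0.62, SE 0.12, edgeR adjusted p = 0.00219), without overlap. Aldh18a1, which makes proline from glutamate, had a log2 fold of 0.23 (SE 0.06) and Aldh5a1, which oxidises succinic semialdehyde from GABA, one of 0.38 (SE 0.10), and neither was called on log2(TPM + 1) (limma adjusted p = 0.305 and 0.173). Aldh1a7, a close relative of the retinaldehyde dehydrogenase Aldh1a1, had a log2 fold of 0.57 (SE 0.20, adjusted p = 0.0387 by edgeR). Its call was lost without the P2 or P7 mature neuron or the P7 progenitor library (edgeR adjusted p from 0.0811 to 0.0911) and on log2(TPM + 1) (limma adjusted p = 0.101). Aldh1a1 itself, at 15.6 to 19.9 TPM in mature neurons and 9.65 to 19.4 TPM in progenitors, was not called (log2 fold 0.36, SE 0.23, edgeR adjusted p = 0.212), but was called higher with age as a block (0.80, adjusted p = 0.0214). Aldh16a1 had a log2 fold of -0.29 (SE 0.12, adjusted p = 0.0569 by edgeR).

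The other called members of this family lay outside the rule for named genes and complete the count. Aldh9a1, of carnitine synthesis, had a log2 fold of -1.41, with 2.68 to 6.22 TPM in mature neurons and 13.2 to 16.4 TPM in progenitors. The mitochondrial Aldh1b1 had a log2 fold of -1.27. Aldh7a1, of lysine breakdown, had one of 0.28, and its call was lost without any 1 of 5 libraries (P2 or P7 mature neuron, P3, P7 or P9 progenitor, with edgeR adjusted p from 0.0605 to 0.119). On log2(TPM + 1) Aldh7a1 was not called (limma adjusted p = 0.112).

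The 13 members known from supporting cells and glands were set beside the markers of those cells (the list holds Cyp2g1, Cyp2a5, Cyp2a4, Cyp2f2, Cyp1a2, Ugt2a1, Ugt2a2, Gstm1, Gstm2, Sult1c1, Sult1d1, Aldh1a1 and Aldh1a7). Their sum was 5955, 5638 and 4462 TPM in mature neurons and 3768, 4006, 4841 and 2903 TPM in progenitors, and P16 was lowest in both. Of 12 tested, 4 were called higher and 0 lower by edgeR (33.3% and 0%, beside 28.8% and 30% of all genes), with a median log2 fold of 0.50. The sustentacular markers summed to 2805, 2549.8 and 1526 TPM and to 2168, 1827, 2389 and 1247 TPM, again lowest at P16, and 2 of 13 were called higher and 1 lower, with a median log2 fold of 0.19. The enzyme sum was 2.12, 2.21 and 2.92 times the marker sum in mature neurons and 1.74, 2.19, 2.03 and 2.33 times in progenitors, so in TPM these ratios overlapped between the populations. On CPM, where the enzyme sum nearly lacks Ugt2a1, the lowest mature neuron ratio, 2.06, was just above the highest progenitor ratio, 2.04. Against Cbr2, the most abundant of these markers, Sult1d1 stood at 0.572, 0.818 and 1.63 in mature neurons and at 0.422, 0.496, 0.428 and 0.971 in progenitors, and Ugt2a1 at 0.560 to 0.593 and at 0.480 to 0.591.

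Markers of Bowman glands summed to 875, 591 and 4538 TPM in mature neurons and to 403, 513, 259 and 608 TPM in progenitors, with 4 of 11 called higher and 0 lower, and the P16 mature neuron library far above the rest. Most of the sum in that library came from the secreted proteins Obp1a (1866 TPM), Bpifb9b (1349 TPM) and Bpifb9a (780 TPM). None of the defining markers of either cell type was at 0 in all libraries. Genes listed as markers of ciliated respiratory cells (5 of 6 called higher, 1 lower), leukocytes (5 of 7 higher, 0 lower), ensheathing glia (5 of 6 higher, 0 lower) and endothelium and fibroblasts (2 of 5 higher, 0 lower) also stood above 0. Their sums ran from 314 to 739, 11.8 to 71.4, 6.69 to 73.6 and 45.8 to 104.9 TPM over the 7 libraries. In the ciliated list Dnah5, the 1 called lower, stood at 0.78 to 2.04 TPM over all libraries. Foxj1, of the 5 called higher, stood at 124 to 138 TPM in mature neurons and 59.2 to 76.1 TPM in progenitors. Whether the ciliated list marks respiratory cells in these pools was not tested. Horizontal basal cell markers summed to between 6.02 and 14.5 TPM, with a median log2 fold of 0.10 and 0 of 5 called by edgeR, and of the microvillous cell markers 1 of 6 was called higher and 1 lower. The part of these cells in the enzyme levels and in their differences was not tested.

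The families lie in chromosomal clusters whose levels differed widely. In all 115 of the 157 members lay in 14 clusters, taken as runs of at least 3 members of which each is within 1 Mb of the next. The Cyp2 cluster on chromosome 7 (chr7:25802475-27158668, GRCm38) holds 13 members with a summed mean of 2017 TPM, nearly all from Cyp2a5, Cyp2g1 and Cyp2f2, while 3 of its members were at 0 TPM in every library. The cluster on chromosome 5 (chr5:86889767-87591594) holds 13 Ugt2 and Sult1 genes with 1550 TPM, mostly from Sult1d1, Ugt2a1 and Ugt2a2, and 4 of its members were at 0 TPM. By contrast, the 6 Cyp3a genes of 1 cluster summed to 0.00429 TPM, with 5 at 0, the 8 Sult2a genes to 0.617 TPM and the 8 Cyp2d genes to 0.646 TPM. These are genes known from the liver. The Gstm cluster on chromosome 3 (742 TPM) held both Gstm2, called higher, and Gstm7, called lower.

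Upstream sequence was looked at for the cores of known response elements, since several members are classical targets of the oxidative stress factor Nrf2 (gene Nfe2l2) and of the aryl hydrocarbon receptor. The 250 bases before each RefSeq start (GRCm38.p6) were available for 132 of the 157 members. The antioxidant response element core TGACNNNGC was found on either strand in 7 of 132 members (5.30%) and in 11.5% of all 27025 genes. The xenobiotic response element core GCGTG was found in 28 members (21.2%) and in 30.9% of all genes. The stretches shown belong to Sult1d1, the abundant member called higher, to Sult2b1, the member with the largest fold, and to Gsta3, a member with the antioxidant core, with the matches in capitals. They lie at chr5:87569007-87569256 (minus strand), chr7:45742479-45742728 (minus strand) and chr1:21240335-21240584 (plus strand).
Sult1d1: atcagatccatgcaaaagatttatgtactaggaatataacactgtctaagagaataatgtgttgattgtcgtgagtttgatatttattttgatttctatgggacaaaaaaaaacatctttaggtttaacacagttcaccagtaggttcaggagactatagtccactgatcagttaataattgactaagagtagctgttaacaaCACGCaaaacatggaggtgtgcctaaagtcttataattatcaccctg
Sult2b1: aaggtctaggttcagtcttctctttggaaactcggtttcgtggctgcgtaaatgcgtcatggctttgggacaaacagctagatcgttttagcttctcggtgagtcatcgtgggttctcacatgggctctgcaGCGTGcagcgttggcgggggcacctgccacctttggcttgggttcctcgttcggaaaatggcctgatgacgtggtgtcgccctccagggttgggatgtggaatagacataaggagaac
Gsta3: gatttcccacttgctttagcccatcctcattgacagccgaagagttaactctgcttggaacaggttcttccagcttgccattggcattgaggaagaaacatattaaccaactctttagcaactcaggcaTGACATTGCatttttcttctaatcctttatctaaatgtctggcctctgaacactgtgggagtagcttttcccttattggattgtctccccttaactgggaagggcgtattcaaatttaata
Sult1d1 and Sult2b1 each hold 1 xenobiotic core in the stretch shown, and the other RefSeq start of Sult2b1 (chr7:45759613-45759862) holds 0. A match is a description of these letters and not a site.

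The age comparison asked whether the enzymes changed with postnatal age in both populations, as a slope on log2 of the postnatal day. By edgeR 0 of the 69 members were called, beside 0% of all 17975 genes, and the smallest adjusted p was 0.0586 for the members and for the whole table alike. At an unadjusted p under 0.05 stood 25 of the 69 members, beside 20.8% of all genes. Limma on log2(TPM + 1) called 0 of 86 members, with 30 of the 86 at an unadjusted p under 0.05. For that last number the share of all genes was not computed. The calls were sensitive to 1 library and to 2 settings. Of 69 tested members 7 were called without the P7 mature neuron library and 8 with the day in place of its log2, and 8 members were called with no filter on low counts. The whole table also gained calls under the same settings, with 5.35%, 6.25% and 2.35% of all genes. In each the share called was larger among the members, and no test compared the shares. Of the slopes, 28 were positive and 41 negative, so 40.6% were positive, beside 49.0% over all genes. The summed sustentacular markers were lowest, and the summed Bowman gland markers highest, in the P16 library of each population, with the values given above. Single gland markers did not all follow that sum: Aqp5 was lowest at P16 in both mature neurons (27.3 TPM) and progenitors (19.0 TPM). The part of these cells in the age slopes was not tested.

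The members with the smallest p going up were all cytochromes P450. Cyp4b1, which activates the lung toxin ipomeanol, stood at 0.240, 1.18 and 12.9 TPM in the mature neuron libraries (P2, P7, P16) and at 2.86, 4.95, 10.1 and 15.2 TPM in progenitors at P3, P7, P9 and P16. Its level was ordered by age within each population, with a slope of 1.50 log2 units per doubling of age (SE 0.23, edgeR adjusted p = 0.0586). Cyp2j12, of the arachidonic acid epoxygenases, stood at 3.16, 5.88 and 23.8 TPM and at 7.45, 11.0, 13.9 and 20.2 TPM (slope 0.81, SE 0.13). Cyp2b10, the classical gene induced by phenobarbital, stood at 0.750, 1.13 and 3.77 TPM and at 1.91, 3.03, 4.42 and 5.13 TPM (slope 0.70, SE 0.13). All 3 were ordered by age in both populations, and each was among those called without the P7 mature neuron library (edgeR adjusted p = 0.0140, 0.0109 and 0.0162).

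The mature neuron library of P16 weighs on the population folds of these genes. Without it Cyp4b1, Cyp2j12 and Cyp2b10 were called lower in mature neurons (edgeR log2 fold -3.57, -1.50 and -1.83, adjusted p = 0.00685, 0.0117 and 0.00671). That fit has mature neurons of P2 and P7 only, so it mixes age with population. With all libraries and no age term they were not called (log2 fold -0.74, -0.18 and -0.81, edgeR adjusted p = 0.576, 0.824 and 0.247). With all libraries and log2(day) as a covariate Cyp4b1 and Cyp2b10 were called lower and Cyp2j12 was not (edgeR log2 fold -1.33 and -0.82 for the called, adjusted p = 0.0372 and 0.0264).

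The members with the smallest p going down were Gstm5, Aldh1a3 and Gsta3. Gstm5, a mu-class enzyme, stood at 134, 102 and 35.5 TPM in mature neurons and at 111, 73.7, 86.5 and 52.6 TPM in progenitors, with the P16 library lowest in both (slope -0.50, SE 0.09, edgeR adjusted p = 0.0617). Aldh1a3, which makes retinoic acid, stood at 2.76, 2.38 and 0.560 TPM and at 7.41, 3.49, 5.15 and 4.68 TPM, with the highest value at the youngest age in each (slope -0.57, SE 0.13). Between the populations its log2 fold of -1.34 (SE 0.52) just missed the call (edgeR adjusted p = 0.0543), and without the P2 mature neuron library it was called lower (-1.95, adjusted p = 0.0189). With that one included, it was called lower in 8 of 16 alternatives. Among them were DESeq2 (adjusted p = 0.0154), log2(day) as a covariate (edgeR, 0.00155), age as a block (edgeR, 0.0295) and log2(TPM + 1) (limma, 0.0254). Gsta3 stood at 40.4, 30.2 and 16.2 TPM and at 19.7, 16.9, 19.3 and 11.6 TPM (slope -0.36, SE 0.09). Sult1c1, with the values given above, had a slope of -0.75 (SE 0.20, edgeR adjusted p = 0.101) and was called without the P7 mature neuron library (-0.83, adjusted p = 0.0181), as were Gstm5 (-0.53, 0.0139) and Aldh1a3 (-0.60, 0.0469).

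**Figure D5:**
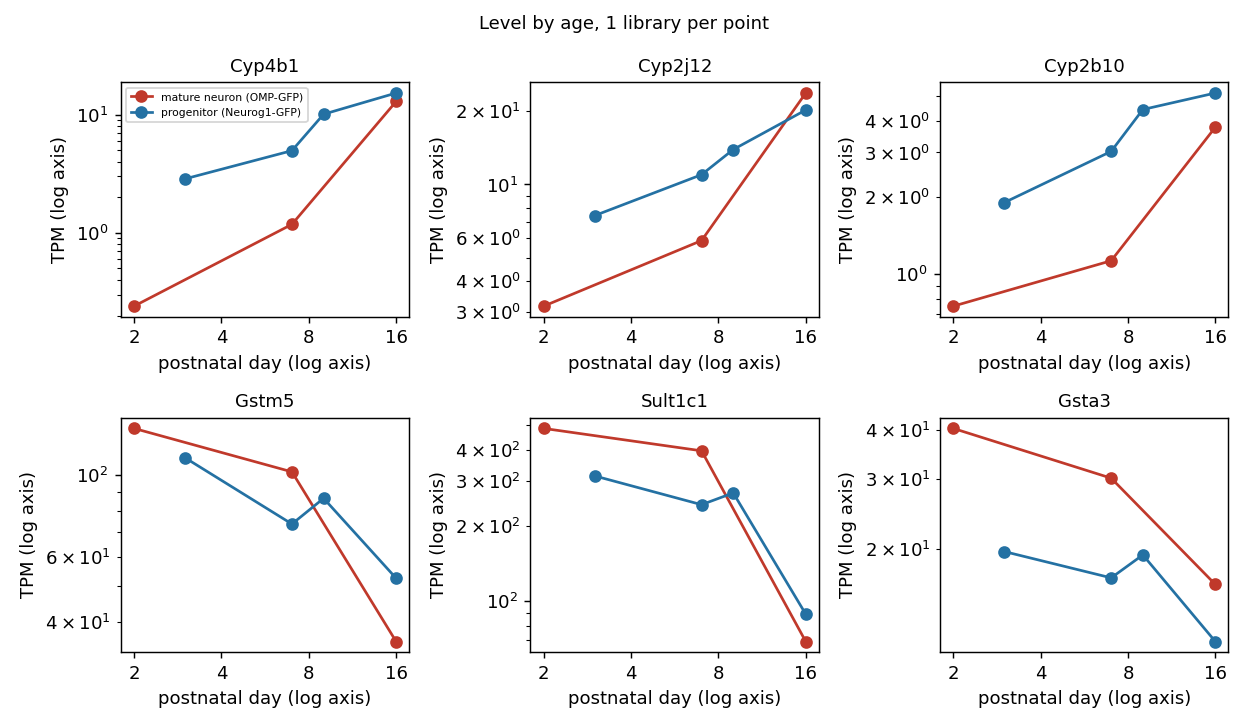
TPM (y axis, log) against postnatal day (x axis, log) for 6 enzymes, 1 library per point, mature neurons in red and progenitors in blue. Cyp4b1, Cyp2j12 and Cyp2b10 are highest at P16 in both populations, while Gstm5, Sult1c1 and Gsta3 are lowest there; no slope was called.

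The difference of age slopes between the populations was called for 0 members and for 0% of all genes by edgeR, and for 0 members by limma on log2(TPM + 1). At an unadjusted p under 0.05 stood 4 of the 69 members, beside 5.98% of all genes, and the smallest adjusted p by edgeR was 0.806. As the slope in mature neurons minus that in progenitors, in log2 units per doubling of age, the members with the smallest p were Cyp4b1 (1.21), Aldh1a1 (0.46) and Aldh1a7 (0.30) in the one direction, and Gstm7 (-0.44), Cyp4x1 (-0.81) and Cyp2a4 (-0.87) in the other. For Aldh1a7 the positive value goes with a nearly flat level in mature neurons (47.8, 45.9 and 44.7 CPM) and with the lowest progenitor level at P16 (37.9, 30.9, 36.2 and 19.5 CPM).

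The enzymes work with partners, which were read from lists of genes. Of 26 tested phase I partners, 8 were called higher in mature neurons and 0 lower (30.8% and 0%, beside 28.8% and 30% of all genes; median log2 fold 0.33), among them the lactonases Pon3 (log2 fold 1.28, from 277 to 316 TPM against 100.2 to 151 TPM) and Pon2 (0.71). Por, the reductase that supplies electrons to every microsomal cytochrome P450, stood between 176 and 257 TPM over all 7 libraries and was not called (log2 fold 0.10). Of 21 genes of glutathione supply and use, 5 were called higher and 2 lower (23.8% and 9.52%; median 0.36). The methylglyoxal enzyme Glo1 was the higher of the named ones (2.08), and the cystine transporter Slc7a11 the lower (-1.41, under 1.5 TPM in every library).

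Of 16 tested genes that supply, carry, transfer or remove sulfate and glucuronic acid, 6 were called higher and 2 lower (37.5% and 12.5%), with a median log2 fold of 0.32. The 6 were Ugp2, Slc35b3, Bpnt1, Tpst2, Gusb and Arsb. Papss1, Papss2 and Ugdh, which make the donors, were not called (log2 fold 0.06, 0.86 and 0.55, edgeR adjusted p = 0.394, 0.0979 and 0.0547). Bpnt1, which clears the by-product of sulfation, stood at 102 to 107 TPM against 80.1 to 82.5 TPM (log2 fold 0.45), and Slc35b3, which carries the sulfate donor into the Golgi, had a log2 fold of 0.69. Of 16 regulators 4 were called higher and 5 lower (25.0% and 31.2%; median 0.06). The retinoid X receptor Rxra was higher (1.43) and Arnt2, a partner of the aryl hydrocarbon receptor class, lower (-2.34). Of 7 efflux transporters 2 were called higher and 0 lower (28.6% and 0%; median 0.40), the glutathione conjugate exporter Abcc1 (1.26) and Abcc4 (0.48). Of 15 genes of the retinoic acid pathway 5 were called higher and 6 lower (33.3% and 40.0%; median -0.11). Its named genes were Crabp1, a retinoic acid binding protein at 25.1 to 54.8 TPM in mature neurons and 999 to 1064 TPM in progenitors (log2 fold -4.52, edgeR adjusted p = 6.84e-06), and the retinal reductase Dhrs3 (2.82, edgeR adjusted p = 3.66e-05).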

How the data were processed

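The authors deposited whole-number read counts per gene and TPM values for the 7 libraries. Per the submitters' processing notes the tools were bcl2fastq 2.18, STAR 2.6.1c and RSEM, on build mm10. Which annotation release and which strand option were used, and how reads with several matches entered the TPM values, is not given in the sources used here. Entries of the counts that name no gene held 23.5% to 27.2% of each library and were left out. Reads with several matches and ambiguous reads are among these entries. Per the labels' protocols the libraries were stranded and poly(A)-selected. Members were found by symbol, and the members and lists were chosen with earlier results of these data known.

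Counts were tested with edgeR 4.0.16 (quasi-likelihood, TMM, filterByExpr; R 4.3.3) over all genes with Benjamini-Hochberg adjustment at 0.05. CPM are counts scaled by TMM. Alternatives were RLE scaling, DESeq2 1.42.0, other filters, limma 3.58.1 on log2(TPM + 1) or log2(TPM + 0.1) for genes with a mean of at least 0.1 TPM, age as a covariate or block, and leaving out each library. The fits leave 5 (population), 4 (age) and 3 (difference of slopes) residual degrees of freedom, and p-values measure only the spread between these libraries, which includes age and may be technical. The fits were tested on simulated data. Coordinates and shared exons are from GENCODE on GRCm38; shared 50-base words were counted over its transcripts.

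Named genes are, in each of the 5 families, the 4 members with the highest mean TPM together with the called members of smallest p, 3 at most per direction, with at least 1 CPM in the higher population; for age and for the difference of slopes the 3 smallest p in each direction; for each partner list the 2 called genes with the smallest p; and members with a mean of at least 5 TPM and fewer than 3 counts everywhere. Protein sequences were not used here.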

Additional observations from a re-analysis of the deposited data

Results flagged for a closer look

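In the progenitor group of 4 libraries, 1 value stood far from the other 3 in 3 of 50 groups examined, where chance alone gives about 1 in 20. Ugt2a2 stood at 1.05 CPM in the P16 library, against 1.85 to 1.92 CPM in the others. Ugt2b36 stood at 0.505 CPM in the P7 library, against 0.222 to 0.263 CPM. The summed level of the Aldh genes was 277 TPM in the P16 library, against 309.7 to 316 TPM.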

How the results depend on the processing

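The 13 members called lower stayed between 12 and 18 under every alternative, and 12 to 17 without single libraries. The 19 called higher became 8 by limma on log2(TPM + 1) or log2(TPM + 0.1), 7 with no TPM filter, and 12 to 22 without single libraries (12 without the P2 mature neuron library). Only P7 and P16 were shared by both populations. With these 4 libraries and age as a replicate block 22 members were called higher and 15 lower, and with log2(day) as a covariate 21 and 18. For the leave-out, block and covariate fits of the populations the shares of all genes called were not computed. The block gained 8 calls and lost those of Aldh7a1, Cyp3a13 and Gstz1. Of 25 called named members 14 kept call and direction throughout, 11 lost the call in some alternative and 0 reversed. Members called on the age slope rose from 0 to 8 with the day in place of its log2 or with no filter, and to between 0 and 7 without single libraries; on the difference of slopes 0 were called throughout.

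Of 16 uncalled named members 6 changed sign in some alternative. The log2 fold of Cyp1a2 (0.07) became -0.24 without the P16 mature neuron library, -0.094 on log2(TPM + 1), with or without the filter, and -0.10 on log2(TPM + 0.1). That of Gstm1 became 0.12 with the block, 0.0047 by DESeq2 or RLE, and ran from -0.14 to 0.14 without single libraries (0.13 and 0.01 without P9 or P3 progenitor). Without single libraries Gstm5 ran from -0.15 (P2 mature neuron) to 0.63, Cyp2j12 from -1.50 to 0.26 (0.26, 0.14 and 0.11 without P2 or P7 mature neuron or P16 progenitor) and Cyp4x1 from -0.31 to 0.38 (0.08 and 0.38 without P7 mature neuron or P16 progenitor), and it was 0.0215 with the covariate, and Cyp2a4 became -0.11 with the block. The cause was not tested.

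The summed level, log2 mature over progenitor, was 0.72 TPM-based and 0.89 on CPM for Sult, and -0.08 and -0.0099 for Aldh. Without single libraries it ran from 0.25 to 0.45 for all members, 0.16 to 0.42 for Cyp, 0.36 to 0.84 for Ugt, -0.27 to 0.08 for Gst, 0.66 to 0.78 for Sult and -0.13 to -0.06 for Aldh. With 3 against 4 libraries and low counts for many members, a p above the threshold does not show that levels were equal.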
